A study of Bos taurus with 17 samples.

Results

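A set of 10 genes of cell-to-cell contact was followed through 3 stages of bovine cumulus cells, which coat the oocyte. They are the cadherins CDH1, CDH2 and CDH5, the catenins CTNNA1 and CTNNB1, and the tight junction genes TJP1, OCLN, CLDN1, CLDN11 and F11R. They were found on 13 of the 21475 probes of the array, which bear 19807 gene names in all. By the probe's gene name, or by its description where the name is only a locus number, 7 probes of 5 genes were found (CDH1, CDH5, CTNNB1, CLDN1 and OCLN). The other 6 probes, of CDH2, CTNNA1, TJP1, CLDN11 and F11R, bear accession numbers or older names in the array files (JAM1 for F11R and zo1 for 1 of 2 TJP1 probes) and were matched by accession or description.

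NC1 cells came from compact complexes around prophase I oocytes, taken from follicles of 3 to 6 mm of 6 single prepubertal calves aged 3 to 6 months. C1 cells came from compact complexes around prophase I oocytes of 6 adult cows of differing ages. Both were aspirated after slaughter. C2 cells came from expanded complexes around metaphase II oocytes of 5 cycling, non-lactating Holstein cows of 3 to 5 years, which had received progestagen implants and an FSH/LH preparation for superovulation. C2 follicles measured more than 8 mm and were punctured by ovum pick up (OPU), a needle guided through the live animal, 60 h after prostaglandin F2α. The 17 samples were run on 17 Agilent 1-colour arrays. NC1 and C1 animals differed in age, which cannot be told apart from the stage. C1 and C2 differed also in hormones given, in follicle size and in how the complexes were obtained, and these cannot be told apart from the stage either.

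Cadherins are transmembrane proteins that bind like molecules of the neighbouring cell in the presence of calcium. Inside the cell they hold beta-catenin (CTNNB1), which binds alpha-catenin (CTNNA1) and through it the actin cytoskeleton, and a second pool of beta-catenin enters the nucleus in Wnt signalling. Tight junctions lie beside these adherens junctions in epithelia. Claudins form their strands, occludin (OCLN) and the junctional adhesion molecule A (F11R) accompany them, and ZO-1 (TJP1) is the scaffold under the membrane that ties them to actin. Cumulus cells form a compact coat that is joined by gap and adherens junctions and loosens after the ovulatory signal, when the cells embed themselves in a hyaluronan matrix.

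Each probe is a DNA of 60 bases, printed 5′ to 3′ in lower case, with no part set apart by capitals. The probes of the 7 genes on which the results turn are shown, since each value given for a gene is the brightness of these sequences.
CDH1: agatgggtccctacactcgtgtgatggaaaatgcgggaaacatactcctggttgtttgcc
CTNNA1: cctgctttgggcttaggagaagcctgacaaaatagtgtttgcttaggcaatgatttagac
CTNNB1: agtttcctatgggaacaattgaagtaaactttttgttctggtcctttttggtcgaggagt
TJP1: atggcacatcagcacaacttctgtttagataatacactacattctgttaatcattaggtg
OCLN: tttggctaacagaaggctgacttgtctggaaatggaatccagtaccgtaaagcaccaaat
CLDN1, brighter probe: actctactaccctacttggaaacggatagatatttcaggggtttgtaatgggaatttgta
CLDN1, dimmer probe: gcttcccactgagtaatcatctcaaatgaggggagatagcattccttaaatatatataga
CLDN11: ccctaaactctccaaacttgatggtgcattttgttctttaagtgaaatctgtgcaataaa
Their GC content ran from 35% in TJP1 and CLDN11 to 50% in CDH1, against a median of 43.3% over the 15256 probes whose sequence was at hand. None of them shared a run of 20 bases with another of these probes.

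Values are log2 signals relative to the median probe of the same array, so that 0 is the median and 1 unit is a doubling. They were compared between stages only, probe by probe. A probe was called valid when at least 80% of the arrays at every stage detected it, which held for 9 probes of 8 of the 10 genes and for 13865 probes in all. CDH5 and OCLN had no valid probe and were read from a fit over all 21475 probes. A change was called at an adjusted p under 0.01 in limma, with the Benjamini-Hochberg adjustment over all probes of the fit.

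The 5 C2 arrays did not form 1 group. The SD of the log2 difference between 2 arrays was 0.444 for C2 replicates 1 and 5 and 0.512 for replicates 3 and 4, against 1.05 to 1.27 for the other 8 pairs of C2 arrays, 0.431 to 0.694 for pairs of NC1 arrays and 0.453 to 0.756 for pairs of C1 arrays. C2 replicates 3 and 4 were both above all 15 other arrays in 5 of 7 epithelium markers (EPCAM, KRT5, KRT7, KRT19 and MUC1). EPCAM, a surface protein of epithelia, read 4.82 and 3.79 on them and -5.06, -2.13 and -6.22 on C2 replicates 1, 2 and 5. KRT5, a keratin of basal epithelial cells, read 7.42 and 6.85 on them and -0.76, -0.71 and -1.18 on the same 3 arrays. The summed scaled signal of the 7 markers was 283.1 and 185.6 on replicates 3 and 4, 15.12 to 25.8 on the other C2 arrays, 12.72 to 15.06 at NC1 and 13.26 to 19.81 at C1. C2 replicates 1 and 5 held the highest sums of 10 leukocyte markers (26.37 and 35.37, against 5.639 to 16.57 on the other 15 arrays) and the lowest sums of 9 granulosa and cumulus markers (1277 and 1205, against 2833 to 8559). Changes of the members at C2 are therefore given also without each of these pairs of arrays, a choice made after seeing the data. Replicates 3 and 4 were also the only C2 arrays scanned on the second of 2 days, which held 3 NC1 and 3 C1 arrays as well.

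At C2 against C1, 6 of the 8 genes with a valid probe passed the test, which is 75%, against 28.1% of all valid probes. CTNNA1, TJP1, CLDN1 and CLDN11 were up-regulated (15.3% of all valid probes were higher) and CDH1 and CTNNB1 were down-regulated (12.8% were lower). The median difference over the 8 genes was 0.58 on the log2 scale, against 0.02 over all valid probes, and the median size of the difference was 0.98 against 0.53. At C2 against NC1, 5 of the 8 passed, which is 62.5%, against 28.1% of all valid probes: CTNNA1, TJP1 and CLDN11 were higher and CDH1 and CTNNB1 were lower. The arrays of the 2 stages did not overlap for 4 genes at C2 against C1 (CDH1, CTNNB1, TJP1 and CLDN11, with 21.6% of all valid probes) and for 3 at C2 against NC1 (CDH1, CTNNA1 and CLDN11, with 20.9%). Both comparisons share the C2 arrays. The genes were chosen with earlier results of these data known, so the shares set beside those of all valid probes carry no test. At C2 against C1, 4 passed without C2 replicates 3 and 4, and 3 without replicates 1 and 5. At C2 against NC1, 3 and 4 passed in these settings. In such bulk samples, fewer cells of a type and less RNA per cell cannot be told apart. Over the 3 stages, 5 of the 8 genes differed (CDH1, CTNNA1, CTNNB1, TJP1 and CLDN11), with 28.6% of all valid probes.

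**Figure D1:**
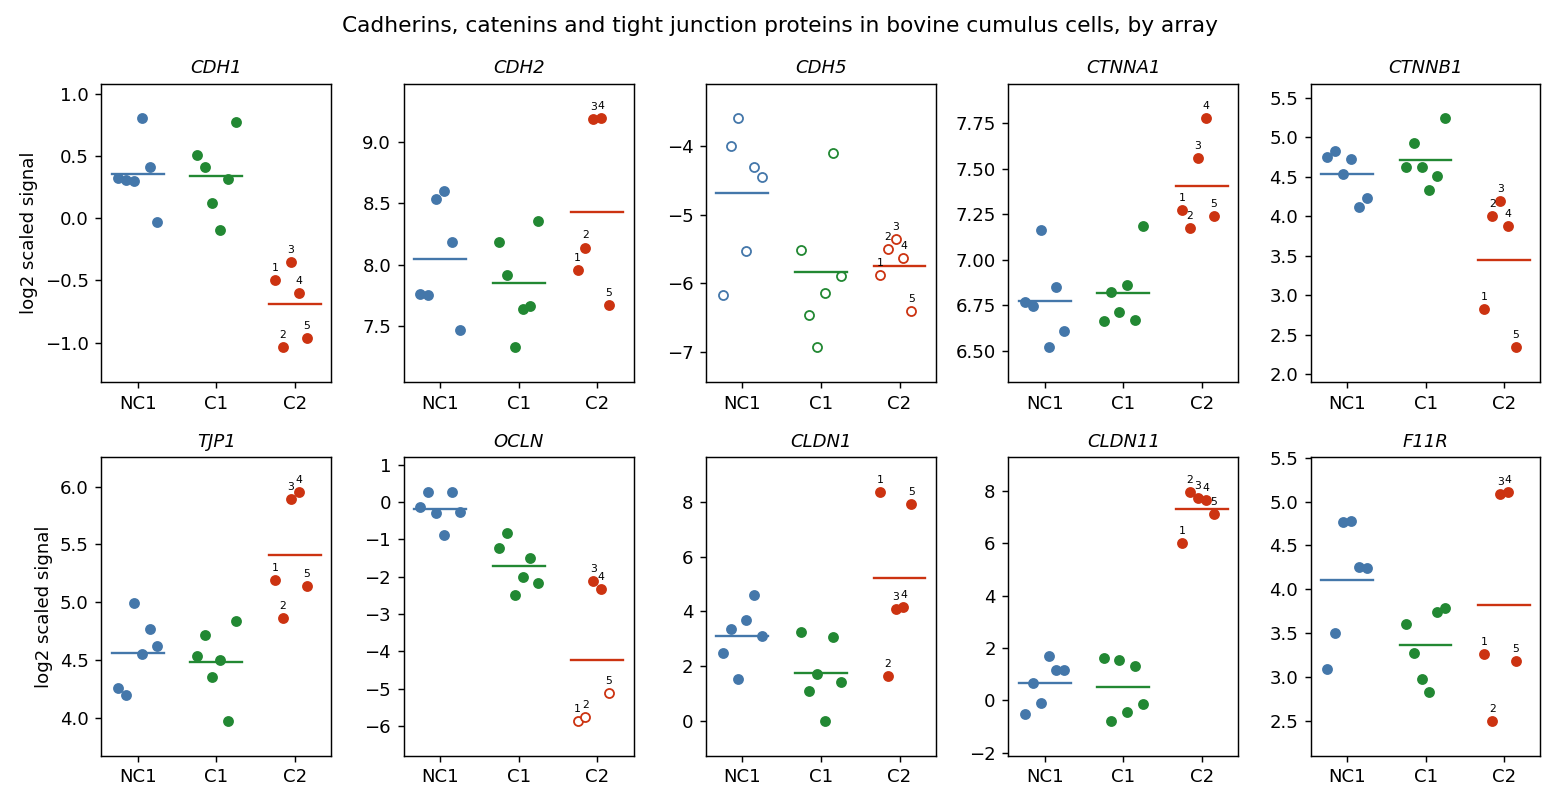
Log2 signal relative to the array's median probe for each of the 17 arrays (vertical axis, a scale of its own in each panel) by stage (horizontal axis), 1 panel for each gene and its brightest probe, with the stage mean as a line; open points are arrays where the probe was not well above background. CLDN11 lay between 6.00 and 7.97 on the C2 arrays and at or below 1.70 on the 12 others, and CDH1 lay below 0 on the 5 C2 arrays.

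CDH1 encodes E-cadherin, the cadherin of epithelia. Its C2 arrays read -0.49, -1.04, -0.35, -0.60 and -0.96 in the order of the replicates. The NC1 arrays ran from -0.03 to 0.81 with a median of 0.32, and the C1 arrays from -0.09 to 0.78 with a median of 0.36. All C2 arrays lay below all arrays of both compact stages, while NC1 and C1 covered nearly the same span. The signal fell by 1.03 on the log2 scale at C2 against C1 (SE 0.19, adjusted p = 0.000337 in limma), a 2.04-fold lower level, and by 1.04 against NC1 (adjusted p = 0.000308 in limma). The exact permutation test gave p = 0.00433 for both, 2-sided, the smallest that 5 arrays against 6 allow. C2 replicate 3 was the highest and replicate 4 the third highest of the C2 arrays. Without these arrays, which held the epithelium markers, the difference to C1 was -1.17, and without replicates 1 and 5 it was -1.003, both with an adjusted p under 0.01 in limma (0.000506 and 0.00183), and the difference to NC1 was -1.18 and -1.02. Within the scan days it was -1.36 and -0.62.

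CDH2 encodes N-cadherin, which granulosa cells and neurons carry. The C2 arrays read 7.96, 8.14, 9.19, 9.19 and 7.68, the NC1 arrays 7.47 to 8.60 (median 7.97) and the C1 arrays 7.33 to 8.35 (median 7.79). C2 replicates 3 and 4 stood above all other arrays and the 3 other C2 arrays lay within the span of the compact stages. The difference at C2 was 0.58 against C1 (adjusted p = 0.131 in limma) and 0.38 against NC1 (adjusted p = 0.337), and neither passed the test. Without replicates 3 and 4, which held the epithelium markers, they were 0.08 and -0.13. Without replicates 1 and 5 they were 0.99 and 0.79 (adjusted p = 0.0146 and 0.0479 in limma), still short of the threshold.

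CDH5, the cadherin of endothelium (VE-cadherin), was not well above background on any of the 17 arrays, so no level or fold is given for it. Of 11 other endothelium markers on the array, EMCN and ERG were also not well above background on any array. The summed signal of the 11 was 4.41 to 6.00 at NC1, 4.04 to 5.76 at C1 and 6.97 to 17.56 at C2. It was highest on C2 replicates 1 and 5 (17.56 and 15.49). VWF, ENG and PLVAP, 3 of the 11, were higher on both of these than on all other arrays (11% of all valid probes were). PECAM1 was lower on both than on all others (8.23% were). KDR and ENG, receptors that other cells carry too, were the 2 of 8 valid markers called higher at C2 than at C1.

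CTNNA1, which links the cadherin complex to actin, read 7.27, 7.17, 7.56, 7.78 and 7.24 on the C2 arrays. At NC1 the arrays ran from 6.52 to 7.16 (median 6.76) and at C1 from 6.66 to 7.19 (median 6.77). All C2 arrays lay above all NC1 arrays, and 1 C1 array reached into the span of C2. The C2 level was 1.499-fold that of C1 (a log2 difference of 0.58 ± 0.17 SE, adjusted p = 0.00919 in limma) and 1.55-fold that of NC1 (adjusted p = 0.00576). The call against C1 was lost in 22 of 31 other settings (adjusted p up to 0.0872), among them without any 1 of 14 single arrays, and the call against NC1 in 13 (adjusted p up to 0.0554), among them without NC1 replicate 1, 2, 4 or 6 or C2 replicate 3 or 4 (0.0116 to 0.0186 in limma). Without C2 replicates 3 and 4, the highest in CTNNA1, the differences were 0.41 and 0.45 (adjusted p = 0.0872 and 0.0554 in limma), and without replicates 1 and 5 they were 0.68 and 0.73 (adjusted p = 0.0107 and 0.00741).

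CTNNB1 encodes beta-catenin, both the link between cadherin and alpha-catenin and the effector of Wnt signals. At C2 the arrays read 2.82, 4.01, 4.19, 3.87 and 2.34. The NC1 arrays ran from 4.12 to 4.83 with a median of 4.64, and the C1 arrays from 4.34 to 5.24 with a median of 4.63. All C2 arrays lay below all C1 arrays, and C2 replicates 1 and 5, those with the highest leukocyte and lowest granulosa marker sums, lay far below the rest. The signal fell by 1.27 on the log2 scale at C2 against C1 (SE 0.29, adjusted p = 0.00213 in limma), a 2.40-fold lower level, and by 1.09 against NC1 (adjusted p = 0.00647 in limma). Without replicates 1 and 5 the differences were -0.69 and -0.51 and no longer passed (adjusted p = 0.0203 and 0.0797 in limma). Without replicates 3 and 4 they were -1.66 and -1.48 and passed (adjusted p = 0.000407 and 0.00108). Whether the cells behind these markers had a part in the fall was not tested. Against NC1 the call was also lost without NC1 replicate 1, 2, 3 or 4 or C2 replicate 1 or 5 alone (adjusted p = 0.0114 to 0.0206 in limma).

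TJP1 encodes ZO-1, the scaffold protein of tight junctions, which also binds alpha-catenin. The C2 arrays read 5.19, 4.87, 5.89, 5.96 and 5.14, above all C1 arrays (3.97 to 4.84, median 4.52) and, but for replicate 2, above all NC1 arrays (4.19 to 4.99, median 4.58). The C2 level was 1.90-fold that of C1 (a log2 difference of 0.92 ± 0.23 SE, adjusted p = 0.00318 in limma) and 1.80-fold that of NC1 (adjusted p = 0.00596). The 2 highest arrays were again C2 replicates 3 and 4. Without them the differences were 0.58 and 0.50, and neither passed (adjusted p = 0.0476 and 0.0796 in limma), and without replicates 1 and 5 they were 1.09 and 1.01 and passed (adjusted p = 0.003 and 0.00523). Without replicate 3 alone or replicate 4 alone, the adjusted p against C1 was 0.0117 and 0.0109, and the call against NC1 was lost without NC1 replicate 1, 2, 4 or 6 or C2 replicate 3 or 4 (adjusted p = 0.0104 to 0.0203 in limma). A second TJP1 probe was well above background on 3 NC1, 5 C1 and 3 C2 arrays and made no call (0.11 at C2 against C1, adjusted p = 0.849 in the all-probe limma fit).

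**Figure D2:**
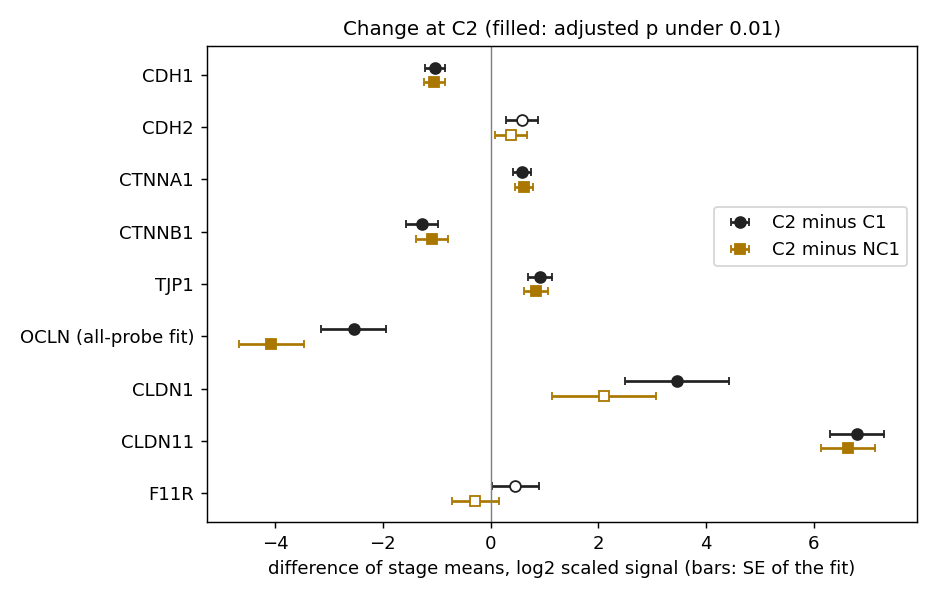
Difference of stage means at C2 against C1 and at C2 against NC1 (horizontal axis, log2 scaled signal, with the SE of the fit as bars) for the brightest probe of each gene (vertical axis); filled points passed an adjusted p of 0.01. CLDN11 stood apart at 6.80 and 6.63, OCLN lay lowest at -2.54 and -4.07, and the catenins moved in opposite directions.

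CLDN11, a claudin known from Sertoli cell and myelin tight junctions, showed the greatest change of the 10 genes. At C2 it read 6.00, 7.97, 7.75, 7.68 and 7.13. The NC1 arrays ran from -0.52 to 1.70 (median 0.90) and the C1 arrays from -0.80 to 1.60 (median 0.58). The lowest C2 array lay above the highest array of both compact stages, and the probe was well above background on all 17 arrays. The level at C2 was 111-fold that of C1 (a log2 difference of 6.80 ± 0.51 SE, adjusted p = 1.04e-08 in limma) and 99.3-fold that of NC1 (6.63, adjusted p = 1.46e-08). The exact permutation test gave p = 0.00433 for both, 2-sided. The difference to C1 was 6.53 without C2 replicates 3 and 4, 7.29 without replicates 1 and 5, and 6.11 and 7.62 within the 2 scan days. The difference to NC1 was 6.36 and 7.13 without these pairs.

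CLDN1, a claudin of many epithelia, rose at C2 against C1, but unevenly. On its brighter probe the C2 arrays read 8.36, 1.63, 4.07, 4.16 and 7.92, the NC1 arrays 1.53 to 4.59 (median 3.23) and the C1 arrays -0.01 to 3.26 (median 1.58). C2 replicates 1 and 5 stood above all other arrays, replicate 2 lay within both compact stages, and replicates 3 and 4 lay above C1 and within NC1. The level was 11.05-fold that of C1 (a log2 difference of 3.47 ± 0.97 SE, adjusted p = 0.00784 in limma), with p = 0.026 in the exact permutation test, while the difference to NC1 did not pass (2.11, adjusted p = 0.0902). Without replicates 1 and 5 the difference to C1 was 1.52 and did not pass (adjusted p = 0.0958 in limma), and without replicates 3 and 4 it was 4.21 (adjusted p = 0.00762). The difference to NC1 was 0.17 and 2.85 in these settings (adjusted p = 0.875 and 0.0553). With single arrays left out, the call was lost without NC1 replicate 2, 4 or 6, C1 replicate 2, 3, 4 or 6 or C2 replicate 1 or 5 (adjusted p = 0.0101 to 0.025 in limma), while without C2 replicate 2 the difference to NC1 was 3.01 and passed (adjusted p = 0.0086). The call against C1 was lost as well with the 75th percentile or quantile scaling, normexp background correction or no filter on dim probes (adjusted p = 0.0101 to 0.0126). The dimmer probe kept the order of the C2 arrays at the top (4.97, -0.20, 1.89, 1.42 and 4.04) and gave a difference to C1 of 3.83 (SE 0.82, adjusted p = 0.00106). The 2 probes differed in the test over the 3 stages, which only the dimmer one passed (adjusted p = 0.00311 against 0.0218 in limma).

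OCLN encodes occludin, a membrane protein of the tight junction strand. Its brighter probe was well above background on all NC1 and C1 arrays but on only 2 of the 5 C2 arrays, replicates 3 and 4. The NC1 arrays read -0.88 to 0.28 (median -0.20) and the C1 arrays -2.48 to -0.83 (median -1.76). The C2 arrays read -5.88, -5.76, -2.11, -2.32 and -5.13, so that 3 lay below all compact arrays and 2 lay within C1. On the 3 dim arrays the signal was not well above background and the level is uncertain, so the mean of C2 rests in part on such values. The mean signal fell by 4.07 on the log2 scale at C2 against NC1 (SE 0.60, adjusted p = 4.38e-05 in the all-probe limma fit, exact permutation p = 0.00433) and by 2.54 against C1 (adjusted p = 0.00323, exact permutation p = 0.026). In that fit 20.5% and 21.2% of all probes passed. The call against C1 was lost without C2 replicate 1, 2 or 5 alone (adjusted p = 0.0101 to 0.0108) and with normexp background correction (-0.41, adjusted p = 0.129), as well as with the slide or the replicate number as a block (adjusted p = 0.0135 and 0.0115). The step from NC1 to C1, a fall by 1.53, did not pass after adjustment (adjusted p = 0.116), while its exact permutation test gave p = 0.00433 unadjusted, with only the highest C1 array reaching above the lowest NC1 array.

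The values of OCLN were set beside the markers of other cell types. Without C2 replicates 3 and 4, which held the epithelium markers, no C2 array is left where the probe was well above background. The measured mean signal was then 14.8-fold lower than at C1 and 42.7-fold lower than at NC1. These folds rest on signals not well above background and are not bounds. Without replicates 1 and 5 the difference was -1.69 against C1, which did not pass (adjusted p = 0.0407), and -3.22 against NC1 (adjusted p = 0.000564). Within the second scan day, where the C2 arrays are replicates 3 and 4, it was -0.44 and -1.73. The summed signal of 10 oocyte markers was 59.79 to 142.3 at NC1, 5.154 to 54.67 at C1 and 3.552 to 7.973 at C2. Within C1 the arrays with the highest OCLN, replicates 2 and 1, also had the highest oocyte marker sums (54.67 and 28.73). The C1 arrays with the lowest OCLN, replicates 3 and 6, had the lowest sums (6.663 and 5.154). Within NC1 the 2 orders differed. Replicate 2 was highest in both (0.28 and 142.3). Replicate 5, second highest in OCLN (0.26), had the second lowest sum (79.73). Replicate 4, lowest in OCLN (-0.88), had a sum of 84.51, above those of replicates 1, 3 and 5. At C2, replicates 3 and 4 had the highest OCLN and the lowest oocyte marker sums (3.552 and 4.724). OCLN was not well above background on the other C2 arrays, and only 5 of the 10 oocyte markers were so on any C2 array. These values therefore give no order of all the C2 arrays. Whether epithelial cells or oocytes had a part in the OCLN values was not tested. A second OCLN probe was well above background on 2 NC1, 6 C1 and 2 C2 arrays and made no call (-0.27 at C2 against C1, adjusted p = 0.483).

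**Figure D3:**
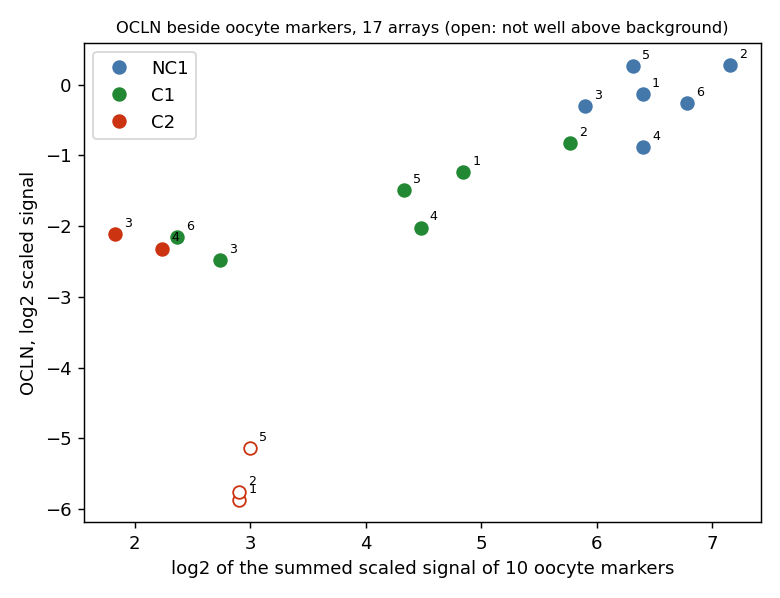
OCLN signal (vertical axis, log2 relative to the array's median probe) against the log2 of the summed scaled signal of 10 oocyte markers (horizontal axis) on each of the 17 arrays, marked by stage; open points are arrays where OCLN was not well above background. The NC1 arrays lie at the upper right, between 5.90 and 7.15 on the horizontal axis, the C1 arrays are spread between 2.37 and 5.77, and C2 replicates 3 and 4 lie above the 3 other C2 arrays.

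F11R encodes junctional adhesion molecule A, which epithelia, platelets and leukocytes carry. The C2 arrays read 3.25, 2.49, 5.08, 5.11 and 3.18, the NC1 arrays 3.09 to 4.78 (median 4.25) and the C1 arrays 2.82 to 3.78 (median 3.44). C2 replicates 3 and 4 stood above all other arrays, and the 3 other C2 arrays lay within or below C1. No comparison passed (0.46 at C2 against C1, adjusted p = 0.43, and -0.28 against NC1, adjusted p = 0.651 in limma). Without replicates 3 and 4 the differences were -0.39 and -1.13, the second with an adjusted p of 0.0186, and without replicates 1 and 5 they were 0.86 and 0.13. The sign turned without the first pair in the comparison with C1 and without the second in that with NC1.

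CDH2, CTNNA1, TJP1 and F11R, 4 of the 10 genes, were higher on both C2 replicates 3 and 4 than on all 15 other arrays, which held for 14.4% of all valid probes. CLDN1 was higher (11%) and CTNNB1 was lower (8.23%) on both C2 replicates 1 and 5 than on all others. CDH1 and CLDN11 were in neither of these sets. CDH1 and CLDN11 were also the only members that passed the test at C2 against both C1 and NC1 in all 31 other settings tried.

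**Figure D4:**
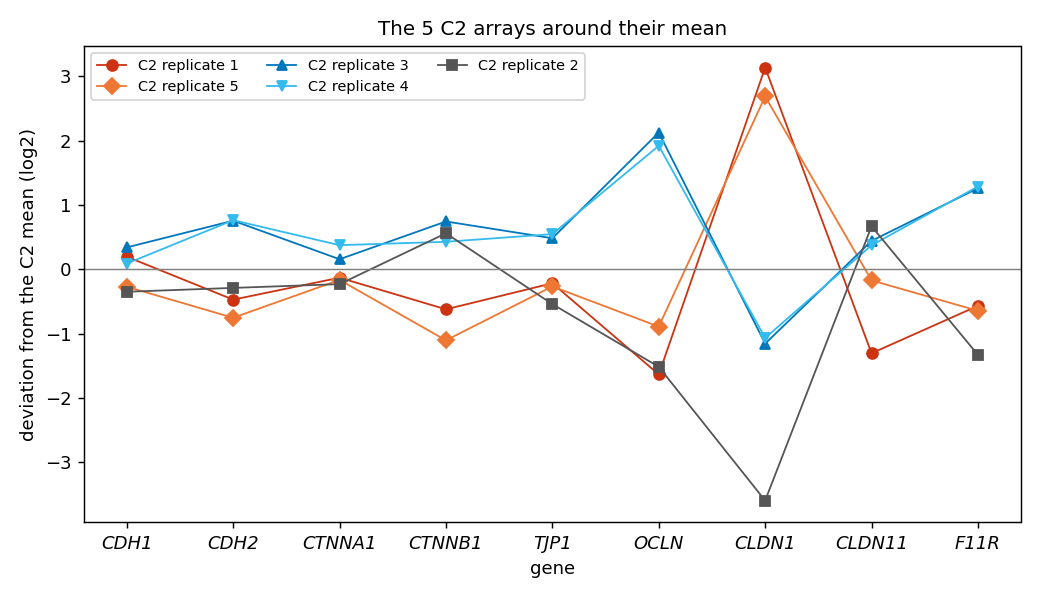
Deviation of each C2 array from the mean of the 5 C2 arrays (vertical axis, log2 scaled signal) for each gene (horizontal axis), with the 5 arrays told apart by marker; lines join the points of 1 array only to guide the eye. Replicates 3 and 4 lie above the mean for every gene shown but CLDN1. Replicates 1 and 5 lie above it for CLDN1, on either side of it for CDH1 and below it for all other genes shown.

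At C1 against NC1, which sets cells of adult cows against cells of calves around oocytes of the same meiotic phase, none of the 8 genes passed in limma, and none had an unadjusted p under 0.05. Over all valid probes, 0.0577% passed and 9.84% had an unadjusted p under 0.05. The differences of the 8 genes ran from -1.36 (CLDN1, SE 0.92) to 0.18 (CTNNB1, SE 0.28), and the lowest adjusted p was 0.61 (F11R). CDH1 differed by -0.01 (SE 0.18), CLDN11 by -0.16 (SE 0.48) and CTNNA1 by 0.04 (SE 0.16). No member's NC1 and C1 arrays were free of overlap (2.1% of all valid probes were).

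Other genes of these junctions were counted from lists of their families. The 5 lists (cadherins, adherens junction partners, claudins, tight junction proteins and desmosome proteins) held 60 other genes with a valid probe. At C2 against C1, 8 of the 60 were higher and 7 were lower (25%, close to the 28.1% of all valid probes), and at C2 against NC1, 5 were higher and 9 were lower (23.3%). Without C2 replicates 3 and 4, 6 were higher and 9 were lower than at C1, and without replicates 1 and 5, 13 were higher and 12 were lower. At C1 against NC1, 0 passed in limma. The genes of these lists named below as rising or falling from C1 to C2 with all arrays also passed in the same direction without either pair. AMOT and AMOTL2 were the exceptions.

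Of 10 other cadherins with a valid probe, 3 were lower at C2 than at C1 and 0 were higher. A valid probe had to be detected at every stage, so this count does not cover all 20 listed cadherins. It leaves out genes dim at C1 as well as genes dim at C2. Among those left out is CDH17, which was well above background on all 5 C2 arrays and on no C1 array. CDH6, a cadherin of kidney and nervous tissue, read 0.57 to 2.69 at C2 and 4.18 to 5.56 at C1, with no overlap, a log2 difference of -3.59 (SE 0.39, adjusted p = 9.89e-07 in limma), and its second probe gave -3.79. CDH3, P-cadherin of basal epithelia, read -1.95 to -1.24 at C2 and -0.14 to 1.06 at C1, a fall by 2.09 (adjusted p = 0.000358). CDH7 fell by 1.29 (adjusted p = 0.000265). All 3 were lower at C2 than at NC1 as well, with log2 differences of -3.72, -2.77 and -2.04 in the same order.

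Among 15 catenins, nectins and other partners of the adherens junction, 2 were higher and 2 were lower at C2 than at C1 (4 and 4 without C2 replicates 1 and 5). NECTIN2, an adhesion molecule of the immunoglobulin family, rose by 1.02 (adjusted p = 0.000628). Vinculin (VCL), which binds alpha-catenin under tension, rose by 1.12 on its brighter probe and fell by 0.98 on its other probe, both past the threshold, so the direction of VCL is uncertain. Afadin (AFDN), which ties nectins to actin, fell by 1.09 (adjusted p = 0.000564), and by 1.21 on its second probe. CTNNAL1, a relative of alpha-catenin, fell by 1.64 (adjusted p = 4.62e-05). Plakoglobin (JUP), which can take the place of beta-catenin in the cadherin complex, differed by 0.33 (adjusted p = 0.418), and p120-catenin (CTNND1) by 0.34 (adjusted p = 0.126).

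None of the 10 other claudins with a valid probe passed in limma at C2 against C1 or against NC1, while without C2 replicates 1 and 5 CLDN15, named after its values were seen, was lower in both (-1.07 and -0.94, adjusted p = 0.00342 and 0.00813). Of 21 other tight junction proteins, 4 were higher and 2 were lower at C2 than at C1 (7 and 4 without C2 replicates 1 and 5). PRKCI, an atypical protein kinase C of the polarity complex, rose by 1.59 (adjusted p = 0.000454). The angiomotin family rose by 1.34 for AMOTL1 (adjusted p = 3.62e-05), 1.22 for AMOTL2 (adjusted p = 0.00887) and 0.996 for AMOT (adjusted p = 0.00164). PRKCI, AMOTL1 and AMOT were higher on both C2 replicates 3 and 4, those with epithelium markers, than on all other arrays. Without this pair the differences were 1.18 for PRKCI and 1.11 for AMOTL1, which passed, and 0.71 for AMOT and 0.89 for AMOTL2, which did not (adjusted p = 0.0243 and 0.0584). Whether epithelial cells were present and had a part in these values was not tested. A second AMOT probe, well above background on 1 array of each stage, differed by 0.37 (adjusted p = 0.475 in the all-probe limma fit). PATJ, a scaffold of the Crumbs polarity complex, fell by 1.51 (adjusted p = 2.44e-05), and TJAP1 fell by 0.90 (adjusted p = 0.000693).

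Of 4 desmosome proteins with a valid probe, 2 rose from C1 to C2 and 0 fell (2 and 1 without C2 replicates 3 and 4). The 1 gene lower in that setting was PKP4, named after its values were seen (-0.95, adjusted p = 0.00319 in limma). With all arrays PKP4 differed by -0.54 and did not pass (adjusted p = 0.0855). PKP2 (plakophilin 2) rose by 1.77 (adjusted p = 2.75e-05) and DSC2 (desmocollin 2), a desmosomal cadherin, by 1.70 (adjusted p = 0.000141). The C2 arrays of PKP2 read 3.89, 4.56, 4.48, 4.63 and 4.52, all above the highest C1 array at 3.36. The C2 replicates with epithelium markers did not stand apart in PKP2.

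**Figure D5:**
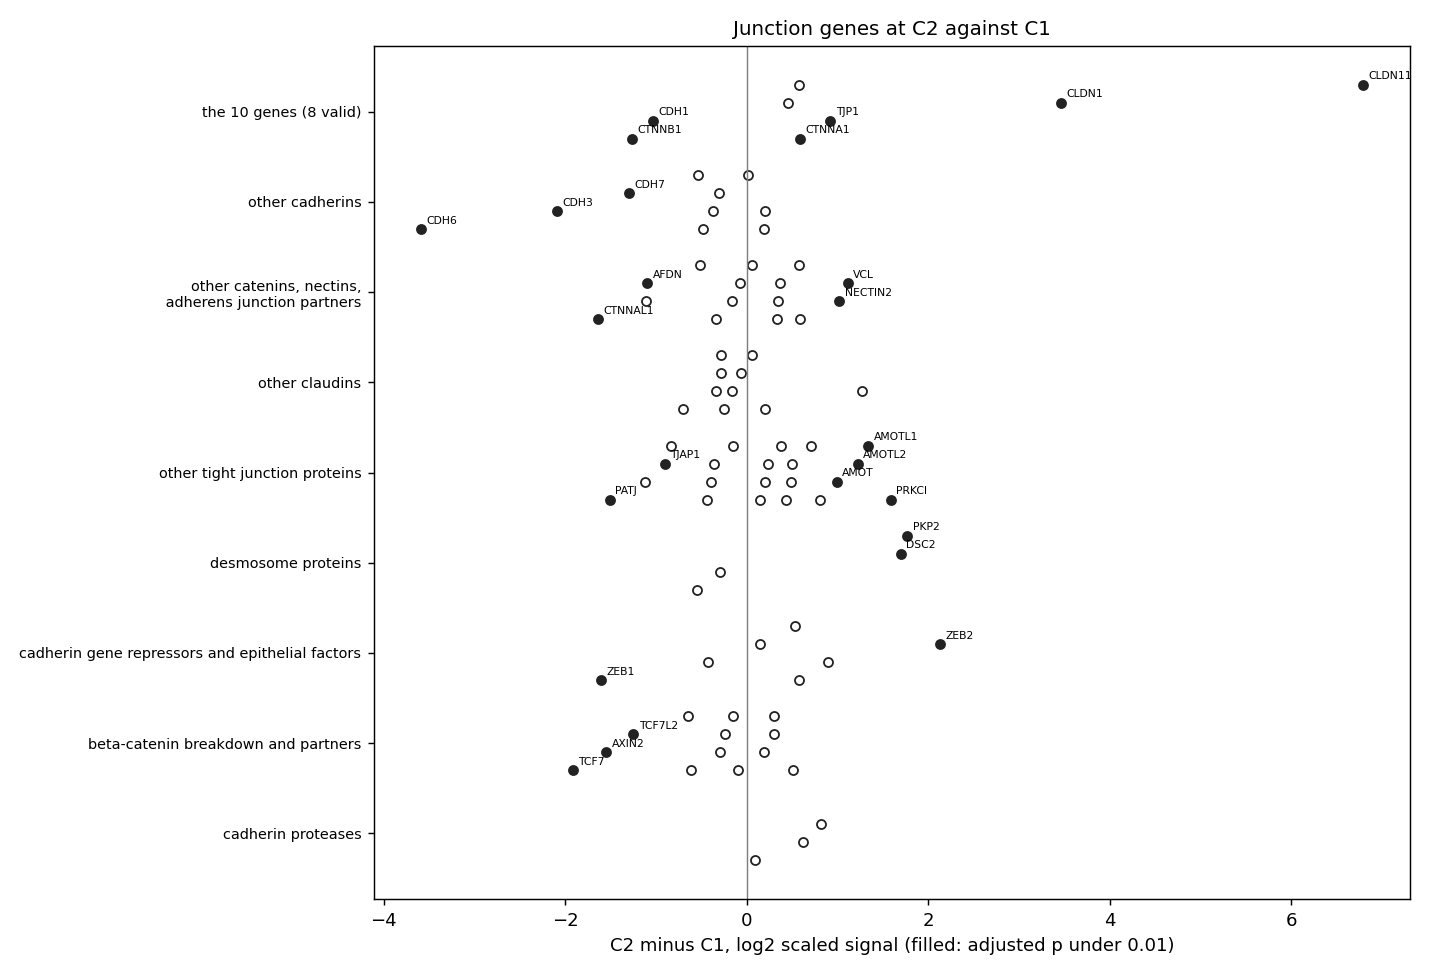
Difference at C2 against C1 (horizontal axis, log2 scaled signal) for the brightest valid probe of each gene, in rows by gene list; the points are staggered within a row for legibility only, filled points passed an adjusted p of 0.01 and are named. CLDN11 lies alone at 6.80, the called genes in the row of other cadherins all lie below 0, and no other claudin is filled.

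Regulators of these genes were counted as well. Among 7 repressors of cadherin genes and epithelial factors with a valid probe, ZEB2, a repressor of the CDH1 gene, rose by 2.13 (SE 0.23, adjusted p = 4.6e-08 in limma). Its C2 arrays of 6.09 to 6.92 and C1 arrays of 3.92 to 4.72 did not overlap, and its second probe rose by 1.25. ZEB2 was higher on both C2 replicates 3 and 4 than on all other arrays, and rose by 1.96 without them (adjusted p = 8.3e-07 in limma). Its relative ZEB1 fell by 1.60 (adjusted p = 0.00538), a call lost without C2 replicates 3 and 4 and without 1 and 5 (-1.48 and -1.17, adjusted p = 0.0287 and 0.0497). SNAI1 and SNAI2, repressors of the Snail family, differed by -0.43 and 0.53 (adjusted p = 0.217 and 0.607). Of 13 genes that break down beta-catenin or act with it, 3 were lower at C2 than at C1 and 0 were higher. They are TCF7 and TCF7L2, DNA-binding partners of beta-catenin, which fell by 1.91 and 1.25, and AXIN2, a scaffold of beta-catenin breakdown and a target of Wnt signals, which fell by 1.55. AXIN2 and TCF7L2 were, like CTNNB1, lower on both C2 replicates 1 and 5 than on all other arrays. Without this pair the differences were -0.80 for AXIN2, which did not pass (adjusted p = 0.0363), -1.002 for TCF7L2 (adjusted p = 0.00382) and -2.58 for TCF7 (adjusted p = 3.41e-05). At C2 against NC1, 1 of the 13 beta-catenin genes was higher and 2 were lower. These counts cover the 13 of 14 listed genes that had a valid probe. TCF7L1, of the same family as TCF7, was not among those called at C2 against C1, but this does not show an unchanged level. Its mean signal was -0.59 at C2, -3.09 at C1 and -3.37 at NC1. The measured mean at C2 was thus higher by 2.50 and 2.78 on the log2 scale. The probe was dim on some arrays of C1 and NC1, so the size of this rise is uncertain. None of 3 proteases that cut cadherins passed in limma at C2 against C1.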

How the data were processed

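RNA of cumulus cells of 17 samples was measured on Agilent 1-colour bovine arrays. The authors deposited spot intensity values from Agilent Feature Extraction 10.5.1.1, background-subtracted and unscaled, and their own table of median-scaled log2 values, used as an alternative. The log2 intensities of the spots of each probe were averaged, without non-uniform or outlier spots, and each array's median was subtracted. Stages were compared in limma 3.58.1 (R 4.3.3) in 1 fit, adjusted by Benjamini-Hochberg. Exact permutation tests went through all splits of the arrays of 2 stages, in Python 3.11.15 with numpy 2.4.6. No spot was saturated, and 66.17% to 82.78% of probes were well above background per array; with arrays, their number limits the precision. No genome build is named in the files, and coordinates are left out. The members and gene lists were chosen with earlier results of these data known. Named are all members by their brightest valid probe, and up to 4 genes a list with the largest called changes at C2 against C1 in each direction. For each member that differed over the stages, the 2 genes most correlated with it are named too. Genes named beyond the rule (CTNND1, JUP, SNAI1, SNAI2, DSP, CDH17, CLDN10, CLDN15, PKP4, TCF7L1 and cell type markers) were chosen after their values were seen. Lists of endothelium, oocyte, leukocyte, theca and stroma, red blood cell, epithelium, granulosa and cumulus, and cumulus expansion genes were summed or counted. A gene of the tight junction list is not reported here and was left out of the counts.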

Additional observations from a re-analysis of the deposited data

How the results depend on the processing

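With 31 alternatives, CDH1 and CLDN11 passed at C2 in all. At C2 against C1, 6 members passed, 4 to 6 with 1 array left out, 3 with close C2 replicates averaged and 3 without C2 replicates 1 and 5. At C2 against NC1, 5 passed, 2 to 6 with 1 array left out, 3 with the slide as a block, 3 with array weights, 2 with close C2 replicates averaged and 3 without C2 replicates 3 and 4. Over the stages, 5 passed, 3 to 6 with 1 array left out, 3 with array weights, 2 with close C2 replicates averaged, 3 without C2 replicates 3 and 4 and 3 without 1 and 5. Averaging and leaving out pairs of C2 arrays, and the scan day as a block, were chosen after seeing the data. At C1 against NC1 no member passed in any setting, and 8 probes passed, 1 to 19 with 1 array left out, 25 with no filter on dim probes, 2 with the slide as a block, 58 with array weights, 27 without C2 replicates 3 and 4 and 32 without 1 and 5. The direction turned for F11R at C2 against NC1 (-0.28) without C2 replicate 2 (0.0528; -0.60 to 0.0528 over the arrays left out) and without replicates 1 and 5 (0.13), for F11R at C2 against C1 (0.46) without replicates 3 and 4 (-0.39), and for CDH2 at C2 against NC1 (0.38) without replicates 3 and 4 (-0.13). OCLN at C2 against C1 was -0.41 (adjusted p = 0.129) with normexp. The cause was not tested.

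Scaling moved the split of calls at C2 against C1 from 2117 higher and 1775 lower to 2114 and 2514 (75th percentile), 2212 and 2464 (quantile) and 1633 and 1643 (normexp); at C2 against NC1 from 2152 and 1741 to 2083 and 2491, 2151 and 2454, and 2468 and 1200. The median of all valid probes shifted by 0.11 at C2 against NC1 on the main scale.

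With the replicate number as a block, 3048 probes differed over the stages, 3202 at C2 against C1, 3088 at C2 against NC1 and 0 at C1 against NC1, and 4, 5, 4 and 0 members passed. The numbers did not pair the samples, since correlations of same-numbered arrays ran from -0.317 to 0.252.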

Other observations

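Other junction genes had no valid probe because they were dim at 1 or more stages. The probe of DSP (desmoplakin), which anchors desmosomes to keratin filaments, was well above background on all 5 C2 arrays (1.55, -1.89, 3.03, 2.11 and 3.03). It was so on 1 NC1 array and on no C1 array. Its signal at C2 was about 170.0-fold that at C1, where it was not well above background (adjusted p = 2.19e-07 in the all-probe limma fit). The probe of CDH17, the cadherin of liver and intestine, was well above background on all 5 C2 arrays (-0.09, -3.05, -1.87, -2.89 and -0.14) and on none of the 12 others. Its signal at C2 was about 24.1-fold that at C1 (adjusted p = 1.23e-06 in the same fit). These 2 folds set the mean of the C2 arrays against the dimmest signal still well above background on each C1 array, or the probe's own value where higher. They are not lower bounds, since brighter probes can also fail to be well above background. On C1 replicate 6 the dimmest such signal was -6.00, while a TJP1 probe at -3.77 was not well above background. CLDN10, a claudin of kidney tubules, read -1.16 to -0.33 on the NC1 arrays, -5.93 to -1.70 on the C1 arrays and -6.44 to -2.50 on the C2 arrays. It was well above background on 6, 5 and 1 arrays in that order, and NC1 did not overlap with either adult stage. On the 4 dim C2 arrays and the 1 dim C1 array the signal was not well above background and the level is uncertain. With these arrays set no lower than the dimmest signal well above background, the difference was -3.94 at C2 against NC1 (adjusted p = 0.000248 in the all-probe limma fit of the measured values) and -2.79 at C1 against NC1 (adjusted p = 0.0442, which does not pass the threshold).

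Over the 17 arrays and 10772 genes searched, the genes closest to CLDN11 were AFAP (Pearson's r = 0.98; the name is that of the array files) and ID4 (0.98), an inhibitor of helix-loop-helix transcription factors. Those closest to CDH1 were IVNS1ABP (0.94) and MAN1A1 (0.94), and to CTNNB1 NPNT (0.95), nephronectin of the extracellular matrix, and CMBL (0.94). Those closest to TJP1 were C3H1orf52 (0.98) and CYB5R4 (0.98), and to CTNNA1 NGRN (0.97) and TBC1D20 (0.96). These values describe the arrays, which fall into stages, and carry no test.

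All 4 cumulus expansion genes on the array (HAS2, TNFAIP6, PTX3 and PTGS2) were higher at C2 than at C1, and 6 of 8 granulosa and cumulus markers with a valid probe were lower. The summed signal of 3 red blood cell markers was 0.4975 to 0.7686 over all arrays, and that of 10 theca and stroma markers was 238.1 to 437.9 at NC1, 243.5 to 378.7 at C1 and 326.8 to 607.5 at C2. The limits of these data are the 5 C2 arrays, which fall into 2 close pairs and 1 array alone, the samples' other cells, and the change of animal, follicle and collection together with the stage. The samples of a stage are described as coming from separate animals.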
